A study of Drosophila melanogaster with 2 samples.

Results

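Dense clusters of fd59A-eGFP peaks are stretches of the Drosophila melanogaster genome in which 4 or more peak summits follow each other at steps of at most 5000 bp. They were chosen by position and signal from the authors' list of peaks that passed an irreproducible discovery rate (IDR) threshold. Overlapping peaks were merged, the summit of highest signal was kept for each merged region, and neighbouring summits on 1 chromosome arm were linked. The 5327 listed peaks gave 5022 summits, of which 1087 (21.6%) lay in 213 chains of 4 or more summits and are called cluster summits here. The other 3935 summits comprised 2001 with no neighbour within the link distance and 1934 in chains of 2 or 3.

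The peaks came from chromatin immunoprecipitation sequencing (ChIP-seq), which recovers DNA bound by a chosen protein. The single group was fd59A-eGFP whole prepupae of pooled sexes, with an age label of 24 day, in 2 biological replicates numbered 2 and 3. All of them carried a transgene for fd59A with a green fluorescent protein at its C-terminal end, and the precipitating antibody was directed against GFP. The chromatin was sonicated to between 200 and 800 bp, a resolution finer than most gaps between cluster summits. The promoter that drives the fusion is not given in the sources used here, whole animals mix all tissues, and peak lists hold no expression values against which the labelled stage could be checked. The samples include neither untagged animals nor input DNA, and signal without the tagged protein therefore cannot be told apart at any cluster.

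Forkhead proteins such as fd59A bind DNA through a winged-helix domain that commonly recognises the core letters TAAACA. In flies, genes with complex expression patterns often carry many separate enhancers, spread over introns and flanking DNA, and each can hold its own bound sites.

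The DNA under the summits of 1 cluster is shown first, because the 10 summits of the CHES-1-like cluster are separate sequences rather than copies of a repeat. CHES-1-like encodes another forkhead-domain transcription factor. Its cluster ran over 16958 bp of the X chromosome, from 7692249 to 7709206, wholly within the gene body. The windows below reach 50 bp to either side of a summit in RefSeq's Release 6 (dm6) sequence, written 5′ to 3′ on the plus strand. They are the 2 strongest summits of that cluster, its 2 outermost ones, and the strongest summits of the clusters at Raf, aos and cbt. Capitals mark a match, on either strand, to 1 of 9 searched motifs.
CHES-1-like summit 9 (chrX:7706952-7707052, intron, signal 974): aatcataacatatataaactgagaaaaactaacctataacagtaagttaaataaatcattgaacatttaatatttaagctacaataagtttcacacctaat
CHES-1-like summit 4 (chrX:7697055-7697155, promoter, signal 581): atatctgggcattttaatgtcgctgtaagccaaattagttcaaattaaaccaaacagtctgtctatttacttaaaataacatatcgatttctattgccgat
CHES-1-like summit 1 (chrX:7692199-7692299, intron, signal 239): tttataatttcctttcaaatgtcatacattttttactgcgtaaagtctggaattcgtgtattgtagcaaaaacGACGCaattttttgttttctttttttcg
CHES-1-like summit 10 (chrX:7709156-7709256, promoter, signal 471): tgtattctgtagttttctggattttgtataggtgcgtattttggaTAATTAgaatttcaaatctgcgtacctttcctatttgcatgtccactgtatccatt
Raf summit 6 (chrX:2300655-2300755, intron, signal 1429): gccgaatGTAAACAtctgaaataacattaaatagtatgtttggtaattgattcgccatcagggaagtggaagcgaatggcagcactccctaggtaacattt
aos summit 2 (chr3L:16480504-16480604, intron, signal 463): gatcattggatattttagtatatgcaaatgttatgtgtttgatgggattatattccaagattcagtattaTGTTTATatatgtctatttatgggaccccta
cbt summit 3 (chr2L:481040-481140, intron, signal 2841): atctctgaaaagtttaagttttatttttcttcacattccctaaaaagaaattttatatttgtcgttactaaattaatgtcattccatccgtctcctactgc

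The Raf window holds the forkhead core GTAAACA, and the aos window holds ATAAACA on the opposite strand. The CHES-1-like windows hold neither: 4 of its 10 summits had any of the 9 motifs and 0 had a forkhead core. Among the strongest windows of the 17 clusters described one by one below, 3 held a forkhead core and 13 held none of the 9 motifs. Any of the 9 motifs was present at 407 (37.4%) of all cluster summits and 1558 (39.6%) of other summits. A forkhead core was present at 73 (6.72%) and 268 (6.81%). The counts for these few windows were not tested against those shares. A missing match says only that these letters are not in this window.

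CHES-1-like showed how unevenly signal is spread inside a cluster. The values are the authors' signal for each peak, whose scaling is not given in the sources used here. This signal was used to choose the summit kept for a merged region and to rank and describe peaks within a list. It was also added to the model in an alternative run. The strongest of its 10 summits had a signal of 974 in the pooled list, 404 in replicate 2 and 581 in replicate 3. The next, in a promoter 401 bp upstream of a start site, had 581 in the pooled list, 255 in replicate 2 and 320 in replicate 3. The weakest, 93 bp upstream of another start site, had 118 in the pooled list, 63.8 in replicate 2 and 52.6 in replicate 3. Its 10 summits kept nearly the same order in both replicates, with a Spearman rho of 0.99 between the replicate signals, given as a description across neighbouring peaks. The strongest and weakest summits differed 8.25-fold, and 7 of the 10 lay in introns and 3 in promoters.

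**Figure D1:**
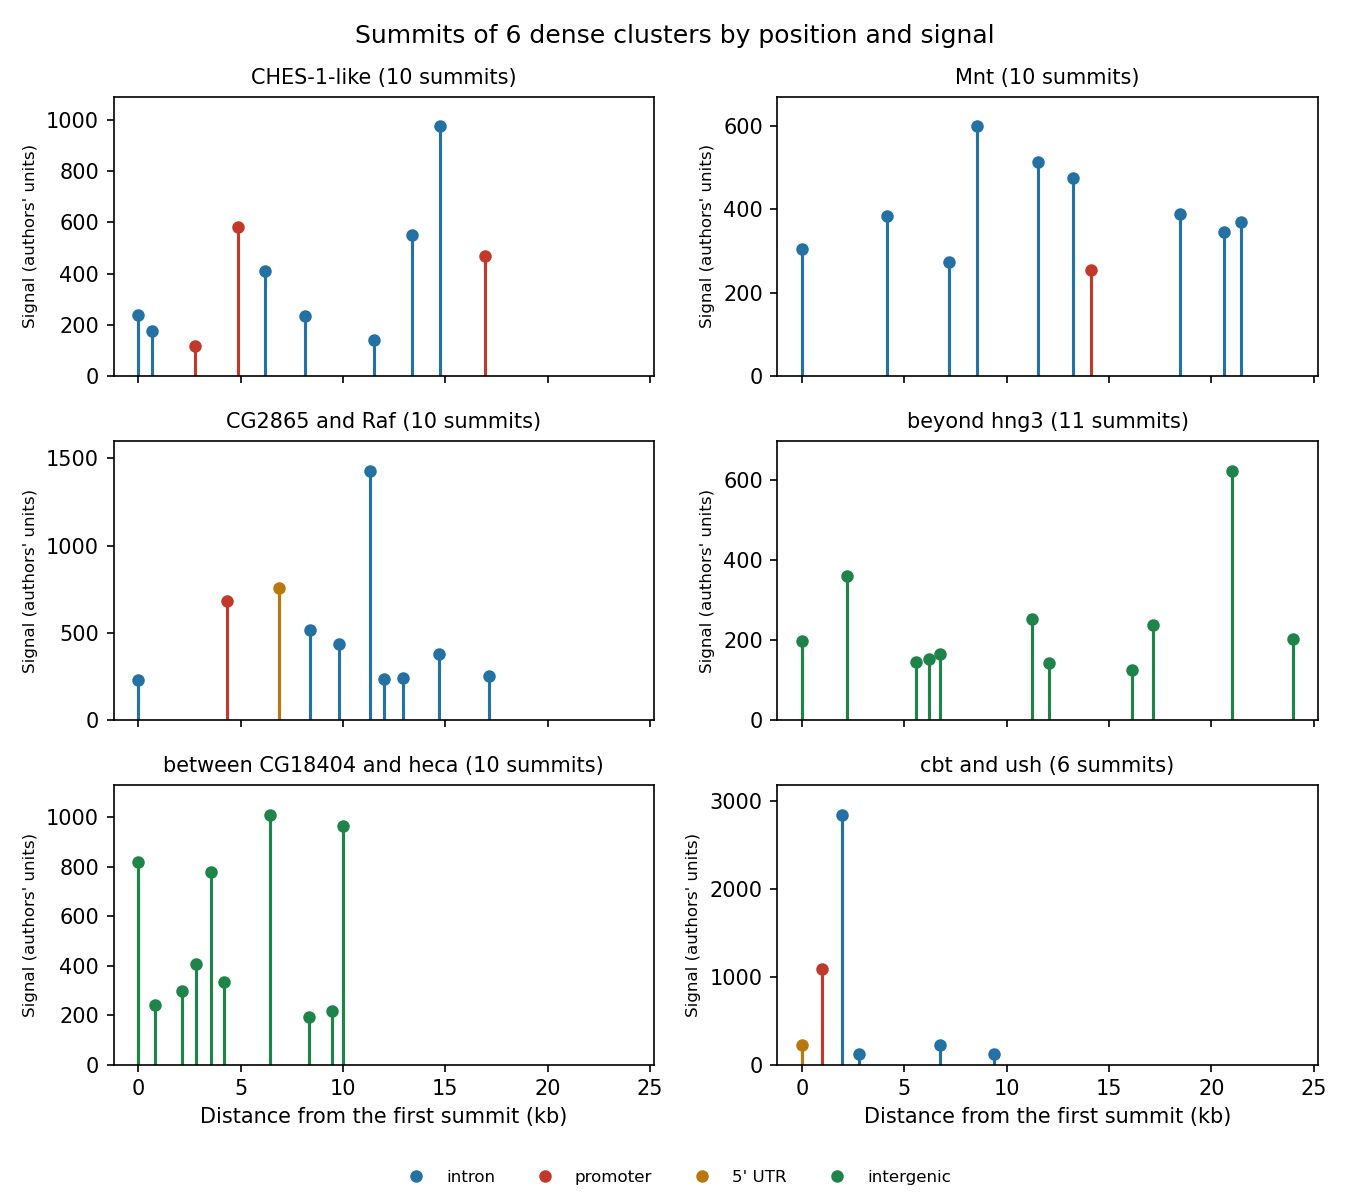
Each panel plots the summits of 1 dense cluster, with the distance from its first summit in kb on the horizontal axis and the authors' pooled signal on the vertical axis, which has its own scale in every panel; colours give the genomic class. Signal varied along every cluster, from 118 to 974 at CHES-1-like and from 120 to 2841 at cbt and ush.

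The cluster with the most summits had 11 and lay in a gene-poor part of arm 3L, from 760327 to 784325, with all of them intergenic. Its strongest summit had a signal of 623 in the pooled list, 271 in replicate 2 and 348 in replicate 3. That summit lay 22712 bp from the nearest protein-coding start, that of CG13898. Only 2 of the 11 were within 10000 bp of such a start, and both were assigned to hng3. The next clusters by number had 10 summits each and took contrasting positions. One on 3R, from 30255597 to 30265615, was wholly intergenic between CG18404 and heca. It packed its 10 summits into 10019 bp with a median gap of 828 bp, and its highest signals were 1011, 967 and 821.

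Mnt, which encodes a Max-binding repressor of the Myc network, had 10 summits over 21436 bp within its gene body on the X. Their signals ran from 254 to 599, a 2.36-fold span, and 9 of the 10 were intronic. The Mnt cluster was thus flatter than that at CHES-1-like, although both had 10 summits in 1 gene. Raf encodes the kinase between Ras and MEK in receptor tyrosine kinase signalling, and its cluster also reached over the neighbouring CG2865. Its highest summit had a signal of 1429 in the pooled list, 658 in replicate 2 and 780 in replicate 3, and lay in an intron 5239 bp downstream of the Raf start. The other 9 summits of that cluster ranged from 229 to 759.

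The gene sbb, or scribbler, which encodes a nuclear protein, held 10 intronic summits on 2R, between 18330469 and 18345813. Each of the 10 lay more than 10000 bp from a protein-coding start and so was assigned to no gene. Its strongest summit had a signal of 785 in the pooled list, 342 in replicate 2 and 436 in replicate 3. A 3L cluster of 10 summits, of which 9 were intergenic, ran from the promoter of Ids (iduronate 2-sulfatase) towards sty. The gene sty, sprouty, encodes an antagonist of receptor tyrosine kinase signalling, and the last summit lay 18505 bp from its start. The highest signal in that cluster was 1053.

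Clusters of 9 summits covered several gene neighbourhoods. At tara, a gene of the trithorax group, 4 of 9 summits upstream on 3R were assigned to tara and 5 to mtSSB, a mitochondrial DNA-binding protein. The tara summit nearest to its start, at 1147 bp upstream, was the strongest of that cluster with 916 in the pooled list, 411 in replicate 2 and 519 in replicate 3. At aos, which encodes the secreted EGFR inhibitor argos, 6 of 9 summits were assigned to aos and 3 to CG42514. The strongest had a signal of 463. All 9 also lay within the body of another gene, CG33158, which overlaps aos. The cluster at CG12078 and CG43389 on 3L was compact, at 9757 bp, and had 5 promoter summits of 9 and a highest signal of 1315. A cluster of 9 beyond Reg-2 on 3L reached 20582 bp upstream of that gene's start, with signals of 114 to 749. The cluster of 8 at eEF1gamma, a subunit of a translation elongation factor, had its strongest summit, 1877, at a noncoding start 5721 bp upstream of that gene.

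The strongest single summits of clusters stood in 5 further places. In an intron of ush, 1402 bp upstream of the start of cbt, 1 summit had a signal of 2841 in the pooled list, 1199 in replicate 2 and 1629 in replicate 3. It ranked second of all 5022 summits in the pooled list. The gene ush encodes a cofactor of GATA factors and cbt encodes a zinc-finger transcription factor. The 5 summits beside it had signals of 120 to 1084, and this cluster had the widest span of all 213, at 23.7-fold.

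At HmgD and HmgZ, neighbouring genes of HMG-box chromatin proteins on 2R, an intronic summit had a signal of 2504 in the pooled list, 956 in replicate 2 and 1543 in replicate 3. The other 4 summits of that cluster had signals of 108 to 291, so it consisted of 1 strong summit and 4 weak ones. The 4 summits near lncRNA:Vinr, a long noncoding RNA gene on the X, had signals of 2459, 1799, 1088 and 372. Here 3 of 4 were strong. At CG32772 on the X, the strongest of 4 summits had a signal of 1969. At osa, which encodes a subunit of the Brahma chromatin-remodelling complex, an intronic summit had 1802 and the other 4 summits 117 to 605. Of the 20 strongest summits in the whole list, 8 were cluster summits, which made up 21.6% of all summits. This count was not tested.

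Spacing was set by the rule, and is given here as description. Gaps between neighbouring cluster summits had a median of 1765 bp, with quartiles of 964 and 2933 bp and a range of 200 to 4999 bp over 874 gaps. The spans from first to last summit had a median of 7700 bp, ran from 2105 to 23999 bp, and summed to 1.30% of the 7 main arms. The link distance did not fall at a break in the data: 115 gaps measured 4501 to 5000 bp and 97 measured 5001 to 5500 bp. Inside clusters 34 gaps exceeded 4500 bp, and 9 pairs of neighbouring clusters were 5001 to 10000 bp apart. Nor did size break at 4: 234 chains had 3 summits, 103 had 4, 54 had 5, 26 had 6 and 1 had 11. The median signal was 217 in chains of 3 and 212 in chains of 4.

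Clusters were found on 5 of the 7 main arms. The cluster share of summits was 23.7% on 2L, 17.2% on 2R, 23.8% on 3L, 18.8% on 3R and 24.6% on the X. Chromosome 4 had 5 summits in all and 0 in a cluster, and the Y had none listed. Per Mb of arm, chains numbered from 1.11 on 2R to 1.95 on the X.

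The median signal of cluster summits was slightly higher than that of the other summits. The median was 227 (quartiles 147 and 382) for cluster summits and 192 (137 and 327) for other summits in the pooled list. In replicate 2 it was 101 for cluster summits and 84.5 for other summits, and in replicate 3 it was 132 and 112. The strongest 20% of the list took in 262 (24.1%) of the cluster summits and 742 (18.9%) of the others. The ranges overlapped almost wholly, from 106 to 2841 in clusters and from 106 to 2996 elsewhere. Because signal decided which summit of a merged region was kept, no test was made.

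Both replicates held most cluster summits. A listed replicate summit lay within 100 bp in both lists for 1028 (94.6%) of the cluster summits and 3677 (93.4%) of the other summits, against 93.7% of all summits. These shares are close to that background, and both replicates had entered the pooled list. Against the 5327 strongest peaks of a replicate, replicate 2 matched 970 (89.2%) of the cluster summits and 3326 (84.5%) of the others, with 85.5% over all. Replicate 3 matched 981 (90.2%) of the cluster summits and 3511 (89.2%) of the others, with 89.4% over all. The replicate signals of matched summits had a Spearman rho of 0.87 over cluster summits and 0.82 over other summits, across peaks that are not independent.

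The order of summits inside a cluster was largely shared between replicates. The same summit was the strongest in both replicates in 175 of 213 clusters (82.2%). Over the 189 clusters in which rho was computed, the replicate signals had a median within-cluster rho of 0.87 (quartiles 0.70 and 1.00), and rho was above 0 in 183. The strongest summit exceeded the weakest by a median of 3.66-fold, with a range of 1.28 to 23.7-fold. All summits were matched in both replicates in 162 clusters.

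**Figure D2:**
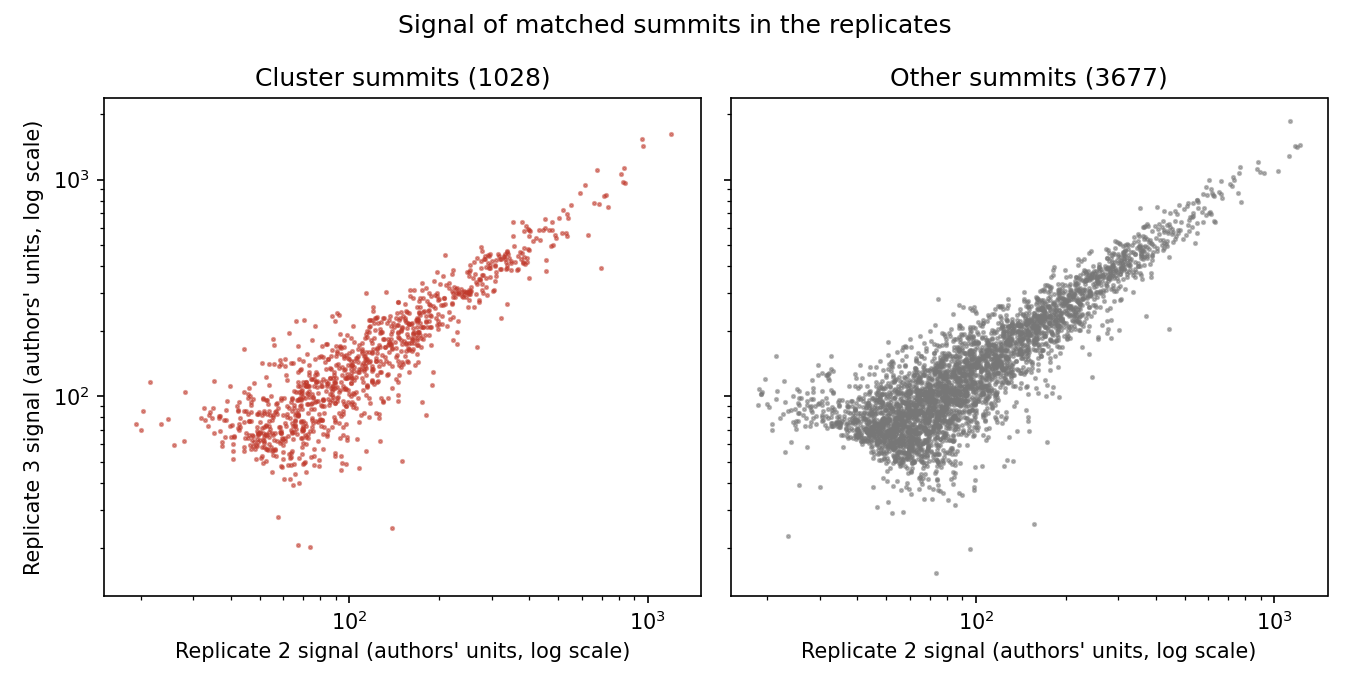
Points are summits matched in both replicates, by their signal in replicate 2 (horizontal) and replicate 3 (vertical), both in the authors' units on log axes; the left panel holds 1028 cluster summits and the right panel 3677 other summits. Rank order was shared in both panels, with Spearman rho of 0.87 for cluster summits and 0.82 for other summits.

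The rule was then applied to the 5327 strongest peaks of each replicate alone. Replicate 2 gave 227 chains with 1150 summits, and 826 (76.0%) of the cluster summits were found again within 100 bp. Those chains touched 175 of the 213 clusters, and 150 clusters kept 4 or more summits. Replicate 3 gave 214 chains with 1087 summits, of which 871 (80.1%) matched a cluster summit, and 164 clusters kept 4 or more. Taken the other way, 71.8% of the chain summits of replicate 2 lay in clusters of the pooled list. The pooled list was made from these replicates, so this overlap is no independent check.

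Where the summits lay relative to genes was not used by the rule. Cluster summits lay less often in promoters, within 500 bp of a transcript start. Promoters held 211 (19.4%) of the cluster summits and 1456 (37.0%) of the other summits, against 33.2% of all summits. The odds ratio was 0.410 (95% interval 0.335 to 0.502; adjusted p = 8.3e-17; n = 1087 cluster summits and n = 3935 other summits). Introns held 570 (52.4%) of the cluster summits and 1716 (43.6%) of the others, an odds ratio of 1.43 (1.13 to 1.80; adjusted p = 0.010; n = 1087 and n = 3935). The intron share was 38.9% for isolated summits, 46.7% in chains of 2, 51.6% in chains of 3 and 48.5% in chains of 4. A high intron share was therefore not particular to clusters. Intergenic DNA held 287 (26.4%) and 690 (17.5%), an odds ratio of 1.69 (1.26 to 2.26; adjusted p = 0.0022; n = 1087 and n = 3935). These tests are generalised estimating equations over all summits, with each chain as the unit of error and Benjamini-Hochberg adjustment over 14 properties. They compare places in 1 peak list, not replicates of a condition. The rule did use spacing, and DNA around 1 start holds few separate summits, so the promoter share per summit can fall as chains lengthen. The part of this in the result was not tested. At least 1 promoter summit was present in 126 of 213 clusters, and 869 (43.4%) of isolated summits lay in promoters. With 1 summit per chain, the one of highest signal, the promoter difference was -15.43 percentage points (adjusted p = 7.8e-05, same model, n = 213 and n = 2851 summits). Those chains were still grouped by spacing, so this comparison cannot tell the part of spacing apart.

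The intron and intergenic calls were less stable than the promoter call. With replicate 2 alone, which leaves out replicate 3, the intergenic difference was 5.44 percentage points and did not pass (adjusted p = 0.095; n = 1150 and n = 3846 summits). With 1 summit per chain, the intron difference was 7.56 percentage points and did not pass (adjusted p = 0.083; n = 213 and n = 2851 summits). Without arm 2R the intron difference was 6.68 percentage points (adjusted p = 0.13; n = 934 and n = 3199 summits). The promoter difference, -17.59 percentage points over all summits, passed under all 15 alternatives run.

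**Figure D3:**
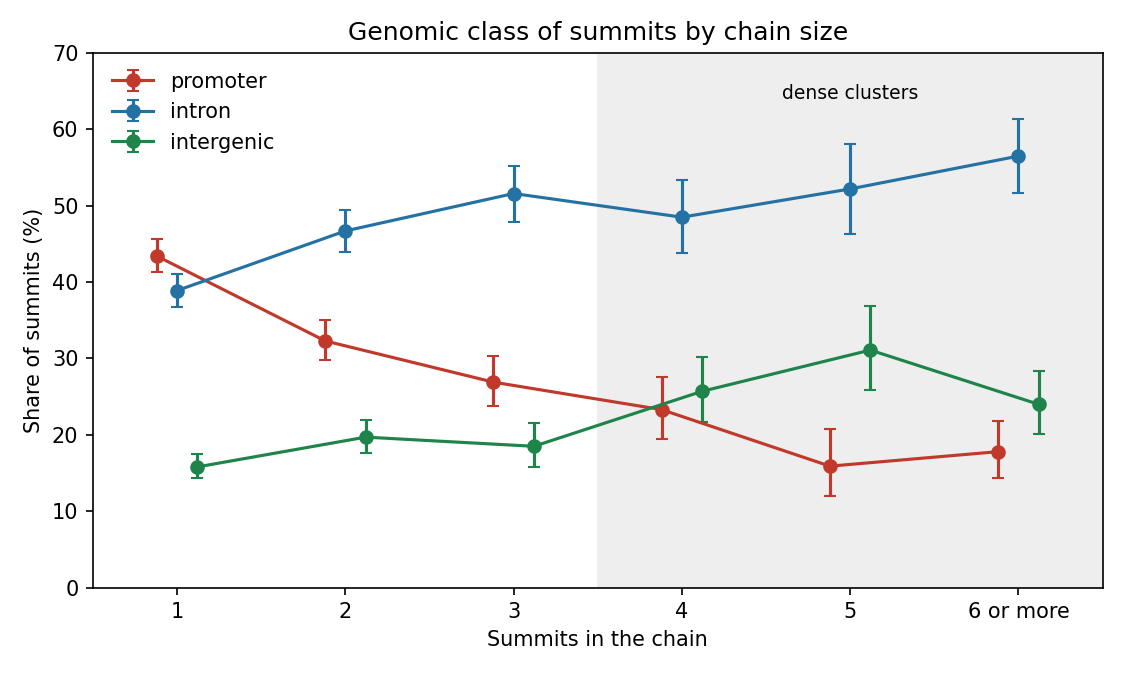
Points give the share of summits, in %, in promoters, introns and intergenic DNA by the number of summits in their chain, with 95% Wilson intervals that cover counting error only; grey marks dense clusters. The promoter share was 43.4% for isolated summits, 32.3% in chains of 2, 26.9% in chains of 3 and 23.3%, 15.9% and 17.8% in chains of 4, 5 and 6 or more. Shares are per summit, and the part of summit spacing in them was not tested.

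Other classes were rare in clusters. Coding exons held 0 of the 1087 cluster summits and 6 of the others, 3' UTRs held 2 and 24, 5' UTRs 5 and 17, and noncoding exons 12 and 26. Cluster summits in promoters lay upstream of the start in 163 of 211 cases (77.3%), close to the 1152 of 1456 (79.1%) elsewhere. The nearest protein-coding start was at a median of 3233 bp from cluster summits and 1596 bp from other summits.

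Cluster summits stood where fewer protein-coding genes start. On average 1.01 ± 1.10 genes (SD over summits) started within 5000 bp of a cluster summit and 1.56 ± 1.57 within 5000 bp of another summit. The difference was -0.55 genes (95% interval -0.68 to -0.42; adjusted p = 1.8e-15, same model, n = 1087 and n = 3935). No gene started within that distance for 407 cluster summits (37.4%) and 1188 other summits (30.2%). This count is not separate from the promoter share, since a summit within 500 bp of a protein-coding start enters both. The part of summit spacing in it was not tested.

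Seen cluster by cluster, 87 of 213 had no promoter summit and 126 had at least 1. All summits were intronic in 46 clusters, intergenic in 29 and in promoters in 4. The strongest summit was in an intron in 105 clusters, in a promoter in 52 (24.4%), in intergenic DNA in 52, in a noncoding exon in 3 and in a 3' UTR in 1. In 93 clusters every summit lay in the body of 1 protein-coding gene. Those host genes had a median length of 35132 bp, against 2164 bp for all protein-coding genes; a long gene can hold a longer chain, and the part of gene length in the result was not tested. At the other end, 1 cluster at the ex gene had 7 protein-coding starts inside its span.

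No sequence measure taken within 50 bp of the summit passed the test. The GC content of the 101 bp around the summit was 33.2 ± 8.15% in clusters and 33.0 ± 8.29% elsewhere (SD over summits), a difference of 0.20 percentage points (95% interval -0.43 to 0.83; adjusted p = 0.83; n = 1087 and n = 3935). All motifs were searched on both strands. Forkhead cores were given by GTAAACA and by ATAAACA, and a different site that some forkhead proteins bind by GACGC. The site of GATA factors was AGATAA, and GAGA factor was represented by its core GAGAG. A plain dinucleotide repeat was covered by CACACA. Homeodomain proteins commonly bind TAATTA, the DREF factor binds the palindrome TATCGATA, and the early embryonic activator Zelda binds sites that contain CAGGTA. No motif contains another of the set, and both forkhead cores differ in their first letter only.

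None of the 9 motifs differed in share by this test, and 0 had an unadjusted p under 0.05. GTAAACA was present at 22 (2.02%) of the cluster summits and 90 (2.29%) of the other summits, with an odds ratio of 0.883 (95% interval 0.552 to 1.41). ATAAACA was present at 51 (4.69%) and 183 (4.65%), with an odds ratio of 1.01 (0.738 to 1.38). Either core was found at 73 cluster summits (6.72%), which lay in 66 clusters, and at 268 other summits (6.81%). These intervals leave room for moderate differences in both directions. TATCGATA was rare, at 2 cluster summits (0.184%) and 24 others (0.610%), with an odds ratio of 0.300 (0.0714 to 1.26). In a wider window of 100 bp to either side it was at 0.368% of cluster summits and 1.55% of other summits and passed (adjusted p = 0.013; n = 1087 and n = 3935).

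**Figure D4:**
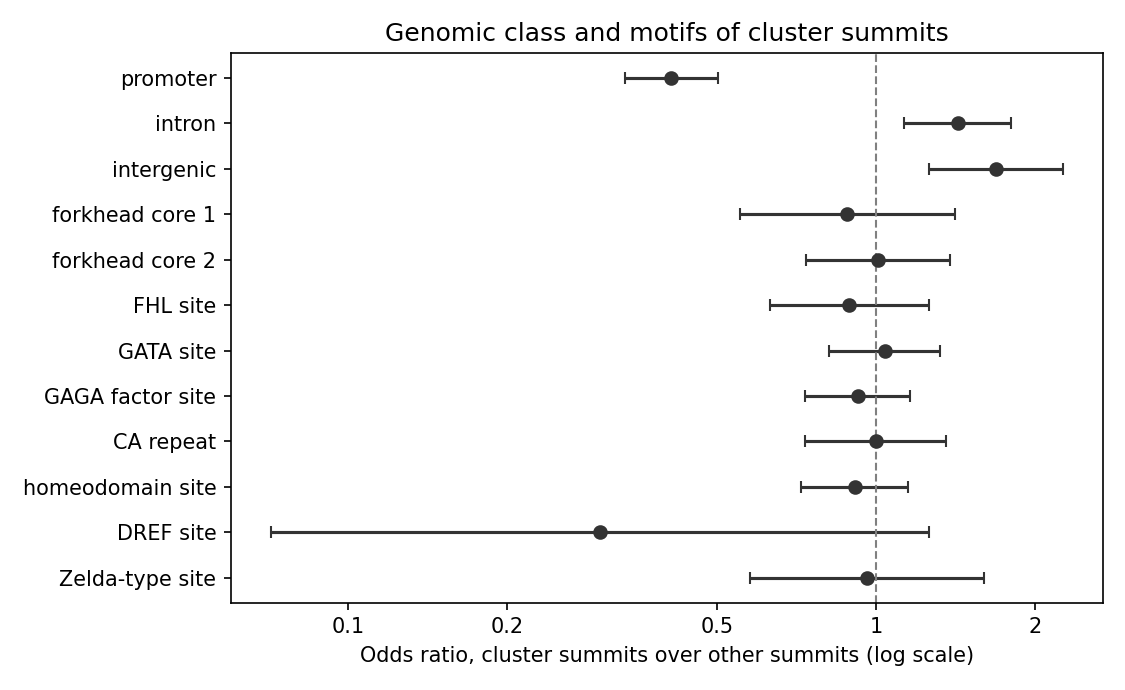
Points are odds ratios on a log axis for a summit in a dense cluster over any other summit, with 95% intervals; 3 genomic classes are followed by 9 motifs. Promoter lay below 1 at 0.410, intron and intergenic lay above 1 at 1.43 and 1.69, and every motif interval crossed 1.

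Repeated sequence was seldom shared between the summits of a cluster. In 1 of 213 clusters, a single pair of summit windows had a stretch of 15 identical bases on either strand. Merged regions were made of 2 or more listed peaks in 82 cluster regions (7.54%) and 219 other regions (5.57%).

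Weaker regions that missed the IDR list also lay in the clusters. Of 22917 such regions in the pooled list, 512 fell inside cluster spans, 2.86 per 10 kb. The spans of chains of 2 or 3 summits had 2.45 per 10 kb, and DNA outside cluster spans had 1.65. The ptc cluster held the most, at 14, and 49 clusters held none. These counts describe the same pooled list from which the clusters were taken.

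By nearest start within 10000 bp, 890 cluster summits (81.9%) were assigned to 275 protein-coding genes, which is 1.97% of 13968. Of the 2581 genes with any summit, 10.7% had a cluster summit. A cluster had 1 assigned gene in 115 cases, 2 in 64, 3 or more in 12 and none in 22. Genes with 4 or more cluster summits numbered 122. The most, 15, went to shn, in 2 clusters, and Tlk, CHES-1-like, tara and Mnt had 10 each. Tlk encodes a tousled-like kinase that acts on chromatin assembly. Genes with a cluster summit had a median length of 7762 bp, and those with 4 or more had 18652 bp. The fd59A gene itself had no cluster: its nearest summit, with a signal of 113, was isolated and lay 531 bp from its start.

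The genes of 15 lists of developmental and signalling genes, chosen with earlier results of these data known, were looked up among the 275. Of 280 distinct genes on these lists, 35 (12.5%) had a cluster summit, against 1.97% of all protein-coding genes. Of the 137 list genes with any summit, 25.5% had a cluster summit, against 10.7% of all genes with any summit. The list genes had a median length of 9259 bp, longer than the 2164 bp of all protein-coding genes, and the part of length was not tested. The counts below therefore describe the lists, without a test. Shares in brackets stand beside 12.5% of all list genes and 1.97% of all protein-coding genes.

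Among Dpp pathway genes, Dpp being the fly's main bone morphogenetic protein ligand, 4 of 24 (16.7%) had cluster summits. The receptor gene tkv had 3, of signals 124 to 286. The gene shn, whose zinc-finger protein acts with Smads to repress brk, had 15, of which 12 were intronic and 3 in promoters. Its strongest had a signal of 769 in the pooled list, 316 in replicate 2 and 444 in replicate 3, and its clusters lay next to each other, just beyond the link distance apart. The gene brk, the repressor of Dpp targets, had 5 upstream summits with signals of 230, 533, 751, 768 and 423 in genomic order. Dad, an inhibitory Smad, had 5, of which the strongest, 516, lay 4779 bp downstream of its start in an intron.

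Of 23 EGFR and Ras pathway genes, 5 (21.7%) had cluster summits. At the level of the ligand, spi had 4, with signals of 148 to 792, 3 of them in promoters. The gene ru, which encodes a protease of the rhomboid family, had 5, all weak at 111 to 195. The inhibitor gene aos had 6 and the kinase gene Raf had 7, described above. The gene aop, which encodes the ETS-domain repressor Yan, had 9 in 2 clusters, of which the strongest had a signal of 958 in the pooled list, 401 in replicate 2 and 548 in replicate 3.

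Of 17 forkhead genes, 3 (17.6%) had cluster summits, of which CHES-1-like had 10. The gene foxo, whose product acts under insulin signalling, had 6, and its strongest signals were 593 upstream and 568 in an intron. The gene jumu had 4 intronic summits, the strongest with 816 in the pooled list, 455 in replicate 2 and 377 in replicate 3. In the Hippo growth-control pathway 4 of 13 genes (30.8%) had cluster summits. They were kibra with 5, all intronic and at most 556, wts, which encodes a kinase of the pathway, with 4, and ex and Tgi with 3 each.

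In the Wnt list 2 of 25 genes had cluster summits, and both encode receptors of the Frizzled family: fz2 had 6, all intronic, with a highest signal of 724, and fz3 had 2. In the Hedgehog list ptc, which encodes the Hedgehog receptor, was the 1 of 13 (7.69%), with 6 summits of 109 to 517. By gene bodies that list had ptc and rdx, 2 of 13 (15.4%), beside 1.55% of all protein-coding genes. In the Notch list 2 of 23 (8.70%) had cluster summits. The gene fng, which encodes a glycosyltransferase that modifies Notch, had 4 with a highest signal of 1072, and Ser, a Notch ligand, had 3. The GATA list had 2 of 7 (28.6%), ush with 7 and cbt with 4.

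Ecdysone triggers the passage from larva to prepupa, and 4 of 24 ecdysone genes (16.7%) had cluster summits. The nuclear receptor gene Hr4 had 4 intronic ones, the strongest with 1036 in the pooled list, 447 in replicate 2 and 583 in replicate 3. Eip93F, an ecdysone-induced transcription factor, had 2 upstream summits of 191 and 967. Eip63E and ImpE2, which are neighbours, had 2 each in 1 shared cluster. In the Polycomb and trithorax list 2 of 29 (6.90%) had cluster summits. The gene psq had 8, and ph-p, a Polycomb-complex subunit, had 4. Of those 4, 1 promoter summit had 1743 in the pooled list, 676 in replicate 2 and 1109 in replicate 3. The gene osa is on that list and was not counted, because the 5 summits of its cluster lay over 10000 bp from its start. By gene bodies that overlap a cluster the list had 3 of 29 (10.3%), beside 1.55% of all protein-coding genes. The gene tara is not on the list.

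The remaining lists are also given with the share of their genes that had a cluster summit, beside 1.97% of all protein-coding genes. Of 18 neuroblast genes 2 (11.1%) had cluster summits, brat with 5 and ase with 1. The ase summit lay 7831 bp upstream of its start, and no cluster overlapped the body of ase. By gene bodies that list had 1 of 18 (5.56%). Of 21 temporal patterning genes 2 (9.52%) had cluster summits, Syp with 4 and mamo with 3. Of 12 cell death genes 1 (8.33%) had them: hid, which promotes apoptosis, had 3, with signals of 900, 651 and 333. Among 30 appendage selector genes bab1 alone (3.33%) had cluster summits, with 2 of 118 and 146. None of the 8 Hox genes had a cluster summit, and 2 of them had a summit elsewhere in the list. Beside 1.97% of all protein-coding genes and 10.7% of genes with any summit, 0 of 8 is near the background.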

How the data were processed

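ChIP-seq of fd59A-eGFP prepupae gave deposited peak lists for 2 replicates and their pool, per the labels. The signal of each peak and its −log10 q are the authors' values. Neither the peak caller nor the IDR threshold or the scaling is given in the sources used here. Read totals were not used here, so depth is unknown, and the intervals given take no account of it. Intervals on shares cover counting error only. The dm6 lists were read with RefSeq's Release 6 genome, and genes were taken from Ensembl release 115. From dm3 only counts were taken.

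Summits were merged, linked and classed in a fixed order, with promoters first, then UTRs, coding exons and introns, then exons of noncoding transcripts, and intergenic DNA last. A promoter reached 500 bp from any transcript start. Genes were assigned within 10000 bp. Properties that the rule did not use were compared by generalised estimating equations (statsmodels 0.14.6) with 2-sided Wald p, tested on simulated data. Calls were made at an adjusted p of 0.05. Named clusters were the 12 with the most summits and 5 further ones with the strongest summits; genes were named from these and from the lists. Of 291 list symbols 4 matched no gene. Members and lists were chosen with earlier results of these data known. Analyses used Python 3.11.15, pandas 2.3.3 and matplotlib 3.10.9.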

Additional observations from a re-analysis of the deposited data

How the results depend on the processing

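The number of clusters follows the rule's settings. A link distance of 2500 bp gave 90 clusters with 412 summits and 10000 bp gave 353 with 2037. Chains of 3 or more numbered 447 with 1789 summits, chains of 5 or more 110 with 675, and the 2663 strongest peaks gave 56 with 268. Each replicate alone gave 214 to 227 clusters with 1087 to 1150 summits, and the dm3 list gave 195 with 980.

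The lower promoter share and the smaller number of starts near cluster summits passed under all alternatives run. The intron difference, in percentage points, did not pass at 7.26 (2500 bp), 9.85 (2663 strongest peaks), 7.56 (strongest summit of each chain) and 6.68 (without 2R). The intergenic difference did not pass at 6.31 (2500 bp), 9.22 (2663 strongest peaks) and 5.44 (without replicate 3), against 10.18 without replicate 2. The cause was not tested. Taking 1 summit per chain, leaving out 2R and adding signal to the model were chosen after seeing the data.

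The GC difference never passed and changed sign at -0.04 (10000 bp), -0.12 (without replicate 2, against 0.14 without replicate 3), -0.01 (100 bp window) and -1.29 (strongest summit of each chain). The difference in ATAAACA, also never past the threshold, changed sign at -0.65 (10000 bp), -0.42 (chains of 5 or more), -0.22 (no merging), -0.00 (matched summits), -0.01 (isolated summits as comparison), -0.82 (100 bp window) and -0.50 (without 2R), and its fitted sign turned with signal in the model, where the plain difference was 0.04. The 100 bp window brought 1 motif, TATCGATA, past the threshold, at -1.18 percentage points. The cause was not tested. Counting list genes whose body overlaps a cluster gave 31 in place of 35. By the same count 217 (1.55%) of all protein-coding genes overlapped a cluster.

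No paired analysis was possible because both replicates belong to 1 group and no groups were compared. Tests treat chains as units, so they do not measure spread between animals.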
